A study of Mus musculus with 10 samples.

Results

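The immunoglobulin variable (V) genes were examined in the lung of mice with and without Bpifb1, whose protein is secreted by airway epithelium. Members were all genes of the deposited table that GENCODE M21 annotates as immunoglobulin V genes and whose symbol begins with Ighv (heavy chain), Igkv (kappa light chain) or Iglv (lambda light chain). This gave 216 genes of 47333, of which 113 were Ighv, 100 Igkv and 3 Iglv, and 2 further V genes without such a symbol were left out. RNA came from the right middle lobe of the whole lung of 10 naive, untreated C57BL/6J mice aged 12 weeks. In 5 mice Bpifb1 was lost (KO; 1 male and 4 females by label), and 5 mice were wild type (WT; 2 males and 3 females). The labels state that cages held both genotypes and name no litter or cage of any mouse, nor the way in which Bpifb1 was inactivated. The right middle lobe was not split into cell types, so fewer cells of a type and less RNA per cell cannot be told apart in any value given here.

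An antibody is built of paired heavy and light chains, and each developing B cell assembles its own V region by joining 1 V segment to short D and J segments (heavy chain) or to a J segment (light chains). A B cell therefore transcribes mainly the V gene it has joined, and its descendants carry the same joined gene. Plasma cells, which B cells become, transcribe immunoglobulin genes at very high rates. In the airways they are known for secreting IgA, which Pigr, the polymeric immunoglobulin receptor, carries across the epithelium.

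Shown first are the germline sequences of V genes that led their locus in a mouse, or came second (Ighv1-59 and Igkv12-44). The results turn on telling these genes from one another by reads of 50 bases. Each line gives the last 90 bases of the annotated transcript (GENCODE M21, GRCm38), 5′ to 3′ on the coding strand. In order of the lines, the positions are chr12:114788372-114788461, chr12:115208095-115208184, chr12:115335082-115335171 and chr12:115952538-115952627 for the heavy chain genes, all on the minus strand. For the kappa genes they are chr6:70260409-70260498, chr6:68834846-68834935 and chr6:69814631-69814720 on the minus strand and chr6:67610419-67610508 on the plus strand. All 8 stretches lie in V exons and end in coding sequence. Capitals mark the motif TANTNNTGT or TANTNNTGC, which holds the codon of the conserved cysteine just before the point where the V segment is joined.
Ighv1-26: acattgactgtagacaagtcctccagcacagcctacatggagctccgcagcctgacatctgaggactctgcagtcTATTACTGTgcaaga
Ighv1-55: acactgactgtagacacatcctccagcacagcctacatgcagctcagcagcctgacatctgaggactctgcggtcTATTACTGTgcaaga
Ighv1-59: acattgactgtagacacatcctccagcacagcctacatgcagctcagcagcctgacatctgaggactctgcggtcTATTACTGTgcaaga
Ighv1-82: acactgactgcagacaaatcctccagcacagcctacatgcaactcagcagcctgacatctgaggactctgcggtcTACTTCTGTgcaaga
Igkv6-23: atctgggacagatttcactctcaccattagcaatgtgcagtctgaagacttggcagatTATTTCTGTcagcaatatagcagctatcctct
Igkv12-89: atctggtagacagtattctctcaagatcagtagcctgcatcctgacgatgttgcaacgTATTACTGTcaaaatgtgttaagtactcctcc
Igkv12-44: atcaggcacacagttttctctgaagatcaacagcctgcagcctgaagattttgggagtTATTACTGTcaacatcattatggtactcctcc
Igkv1-135: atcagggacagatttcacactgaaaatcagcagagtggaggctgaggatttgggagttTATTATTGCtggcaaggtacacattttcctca

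The motif, searched on the coding strand alone, was found in this window of 208 of the 216 V genes (96.3%). It was also found in the last 90 bases of 7.54% of 21860 protein-coding transcripts, 1 per gene, most of which end in untranslated sequence. The 4 kappa sequences were clearly apart. Over the 67 bases up to and including the motif they differed from each other at 14 to 26 positions. The heavy chain sequences, all of the Ighv1 family, were closer. Over their 84 bases, Ighv1-26 differed from Ighv1-55 at 6 positions and from Ighv1-82 at 9, and Ighv1-55 differed from Ighv1-82 at 5. Ighv1-55 and Ighv1-59 differed at 1 position only and shared 40 of their 50-base stretches, 11.5% of those in the gene with fewer. Over whole transcripts, the share of 50-base stretches found in no other annotated gene was 100% for Igkv12-89, 85.2% for Ighv1-82, 69.3% for Igkv12-44, 64.4% for Igkv6-23, 63.5% for Igkv1-135, 62.0% for Ighv1-55 and 51.0% for Ighv1-26. Its median over the 216 V genes was 77.6%, and 186 genes had more than 50%. By locus the median was 78.1% for Ighv, 74.4% for Igkv and 78.9% for Iglv. Of kappa genes named below, Igkv4-61 had 48.0%, Igkv5-43 48.8% and Igkv1-110 49.1%, while Iglv1 and Iglv2 had 77.8% and 78.9%. Reads that start outside these stretches must be shared out between genes by estimation, so levels of close relatives at each locus are uncertain.

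Totals ran from 21357424 to 28321294 rounded counts per mouse, so that 3 counts, used here as the floor for detection, equalled 0.104 to 0.143 CPM (counts in each 1000000, with library totals scaled by TMM, the trimmed mean of M-values). Bpifb1 was at 0.217 to 1.26 CPM in the KO and 28.1 to 79.6 CPM in the WT mice, as the labels say. Lung markers were high in every mouse: Sftpc of alveolar type II cells at 12646 to 17396 CPM, Ager of type I cells at 2028 to 2744 CPM and Scgb1a1 of club cells at 21139 to 27533 CPM. KO replicate 5, labelled female, held 1.78 CPM of Xist, the RNA of the inactive X chromosome, where the 3 males had 1.29 to 1.73 CPM and the other 6 females 273.7 to 407 CPM. Its label is kept below. The measures per mouse compared by genotype means and the count of V genes called are also given without this mouse. Floors and intervals cover counting error only, since the reads carry no molecular identifiers.

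All Ighv genes lie on chromosome 12 between 113578504 and 116000461, on the minus strand. The Igkv genes lie on chromosome 6 between 67555497 and 70704177, with 38 on the plus and 62 on the minus strand, and the Iglv genes on chromosome 16 between 19085017 and 19260859. Of the 216 genes, 184 reached 3 counts in at least 1 mouse (91 Ighv, 90 Igkv and all 3 Iglv) and 76 did so in every mouse (27 Ighv, 46 Igkv and 3 Iglv). A further 19 genes reached it in 1 mouse alone. The other 32 genes were under the floor in all 10 mice, 12 of them with 0 counts throughout. Per mouse, 114 to 150 V genes reached the floor. At equal depth the genotypes also overlapped. Thinned to 593 Ighv counts, KO mice held 71.1 to 80.3 genes with a count and WT mice 64.9 to 77.5, and thinned to 1046 Igkv counts they held 71.8 to 80.3 and 74.3 to 78.5 genes.

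Per kilobase of exon, the V genes with the highest mean level over the 10 mice were Iglv1 (16.5 CPM per kb), Igkv12-89 (15.1), Igkv6-23 (11.2), Ighv1-26 (9.27) and Igkv5-43 (9.12). These means hide unequal mice. Iglv1 ranged from 3.49 to 8.85 CPM, while Igkv12-89 ranged from 0.553 to 21.9 CPM and Igkv6-23 from 0.26 to 23.8 CPM. T cell receptor V genes, the counterparts in T cells, summed to 6.61 to 11.3 CPM per mouse over 144 genes. Immunoglobulin V pseudogenes held 5 to 43 counts per mouse over 155 genes, D segments 0 and J segments 0 to 4.

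Summed over all V genes, KO replicates 1 to 5 had 110, 145, 83.3, 103 and 120 CPM. WT replicates 1 to 5 had 197, 94.5, 111, 158 and 142 CPM. WT replicate 1 was highest and KO replicate 3 lowest. WT replicates 1 and 4 lay above all KO mice, KO replicate 3 lay below all WT mice, and the other mice overlapped. KO mice averaged 112 ± 22.9 CPM and WT mice 141 ± 40.4 CPM (n = 5 per genotype, SD). The difference, -28.1 CPM, was smaller than the SD within genotypes (32.8 CPM). Without KO replicate 5 the difference was -30.1 CPM, and without WT replicate 1 it was -13.9 CPM. By label, the 3 WT females had 142 to 197 CPM, the 4 KO females 83.3 to 145 CPM and the 3 males of both genotypes 94.5 to 111 CPM. Heavy chain genes gave 30.2% to 37.9% of V counts in every mouse.

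How evenly the V genes of a locus were used was measured from length-scaled shares, the counts of a gene per kilobase of exon over the sum for its locus in that mouse. The effective number of genes (inverse Simpson index) is the number of equally used genes that would give the same concentration. For Ighv it was 33.4, 39.1, 25.96, 22.1 and 32.6 in KO replicates 1 to 5 and 13.2, 37.8, 25.5, 19.5 and 18.7 in WT replicates 1 to 5. For Igkv it was 31.1, 41.7, 35.4, 16.7 and 36.5 in the KO mice and 15.8, 37.1, 29.4, 11.8 and 15.05 in the WT mice, in the same order. WT replicates 1, 4 and 5 and KO replicate 4 were low at both loci, and KO replicate 2 and WT replicate 2 were highest at both.

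The KO means were higher at both loci, 30.6 ± 6.64 against 22.9 ± 9.4 for Ighv and 32.3 ± 9.5 against 21.8 ± 10.9 for Igkv (SD, n = 5 each), but the genotypes overlapped at each. The differences of 7.71 (Ighv) and 10.4 (Igkv) were close to the SD within genotypes, 8.14 and 10.2. Without KO replicate 5 they were 7.20 and 9.38. No p is given for these measures, which are scores over the members. Sex and concentration moved together within WT: the 3 WT females had 13.2 to 19.5 effective Ighv genes and 11.8 to 15.8 effective Igkv genes, and the 2 WT males 25.5 to 37.8 and 29.4 to 37.1. The KO females, at 22.1 to 39.1 and 16.7 to 41.7, lay above the WT females at both loci, and the KO male had 33.4 and 31.1. KO holds 1 male by label, and KO replicate 5, counted here as female, had Xist near the level of the males. The part of sex in this pattern was not tested.

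**Figure D1:**
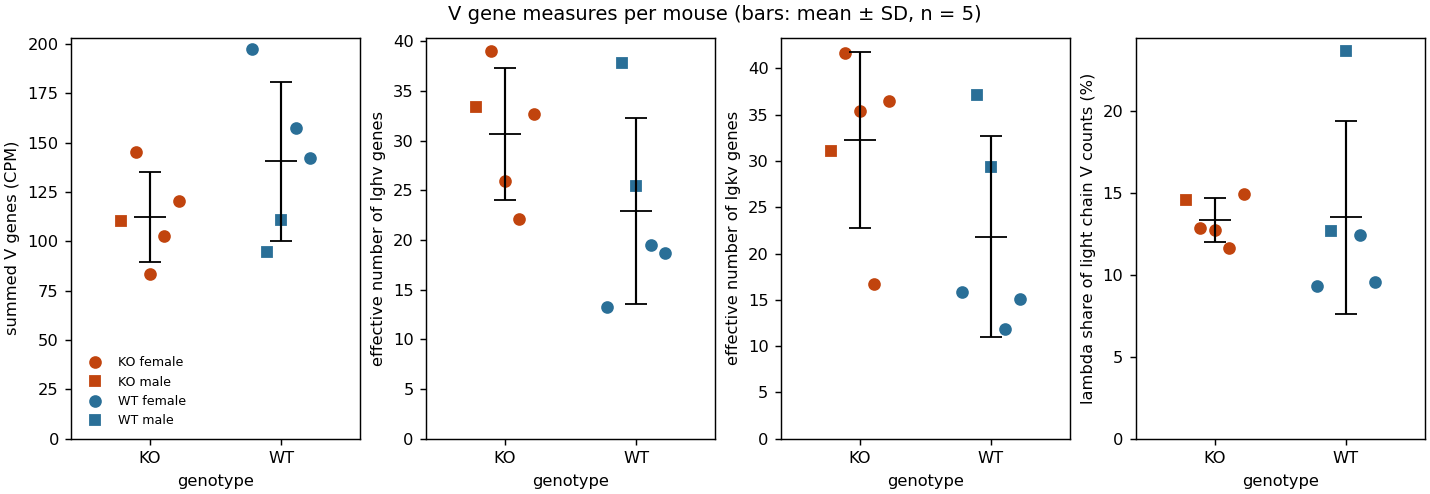
Each point is 1 mouse, with its summed V gene level in CPM, its effective number of Ighv and of Igkv genes, and its lambda share of light chain V counts in percent (y axes, from 0) by genotype (x axis); circles are mice labelled female, squares mice labelled male, and bars the mean ± SD of 5 mice. The genotypes overlap in all 4 panels, WT females sit below KO females in both effective numbers, and 1 WT male has a lambda share of 23.7%.

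The gene that led the heavy chain locus differed from mouse to mouse. In KO replicates 1 to 5 the leaders were Ighv14-2 with 7.44% of the locus, Ighv1-26 with 6.44%, Ighv9-3 with 11.7%, Ighv1-55 with 12.1% and Ighv7-3 with 8.54%. In WT replicates 1 to 5 they were Ighv1-26 with 23.4%, Ighv1-82 with 4.98%, Ighv5-9-1 with 8.84%, Ighv1-55 with 16.9% and Ighv1-82 with 16.8%. Thus 3 genes, Ighv1-26, Ighv1-55 and Ighv1-82, led in 2 mice each. Some leads were near ties. In WT replicate 2 Ighv1-52 came second with 4.97%, and in WT replicate 3 Ighv7-3 did so with 8.78%. The largest share averaged 9.24% ± 2.54 in KO and 14.2% ± 7.3 in WT mice (n = 5 per genotype, SD), which differ by -4.96 points against an SD within genotypes of 5.47. It was -2.65 points without WT replicate 1 and -4.78 points without KO replicate 5.

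The kappa locus showed the same kind of turnover. Leaders in KO replicates 1 to 5 were Igkv5-43 with 8.61%, Igkv12-89 with 5.46%, Igkv1-110 with 7.23%, Igkv12-89 with 18.4% and Igkv10-96 with 7.28%. Leaders in WT replicates 1 to 5 were Igkv6-23 with 19.9%, Igkv5-39 with 6.59%, Igkv12-89 with 10.8%, Igkv12-89 with 25.2% and Igkv1-135 with 19.4%. Igkv12-89 led in 4 of the 10 mice, 2 of each genotype. Here too some leads were narrow. In KO replicate 3 Igkv19-93 came second with 7.20%, and in KO replicate 2 Igkv1-117 did so with 4.97%. The largest kappa share averaged 9.39% ± 5.14 in KO and 16.4% ± 7.52 in WT mice (n = 5 per genotype, SD), which differ by -7.01 points against an SD within genotypes of 6.44. Without KO replicate 5 it was -6.48 points. The ranges, 5.46% to 18.4% and 6.59% to 25.2%, overlapped.

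**Figure D2:**
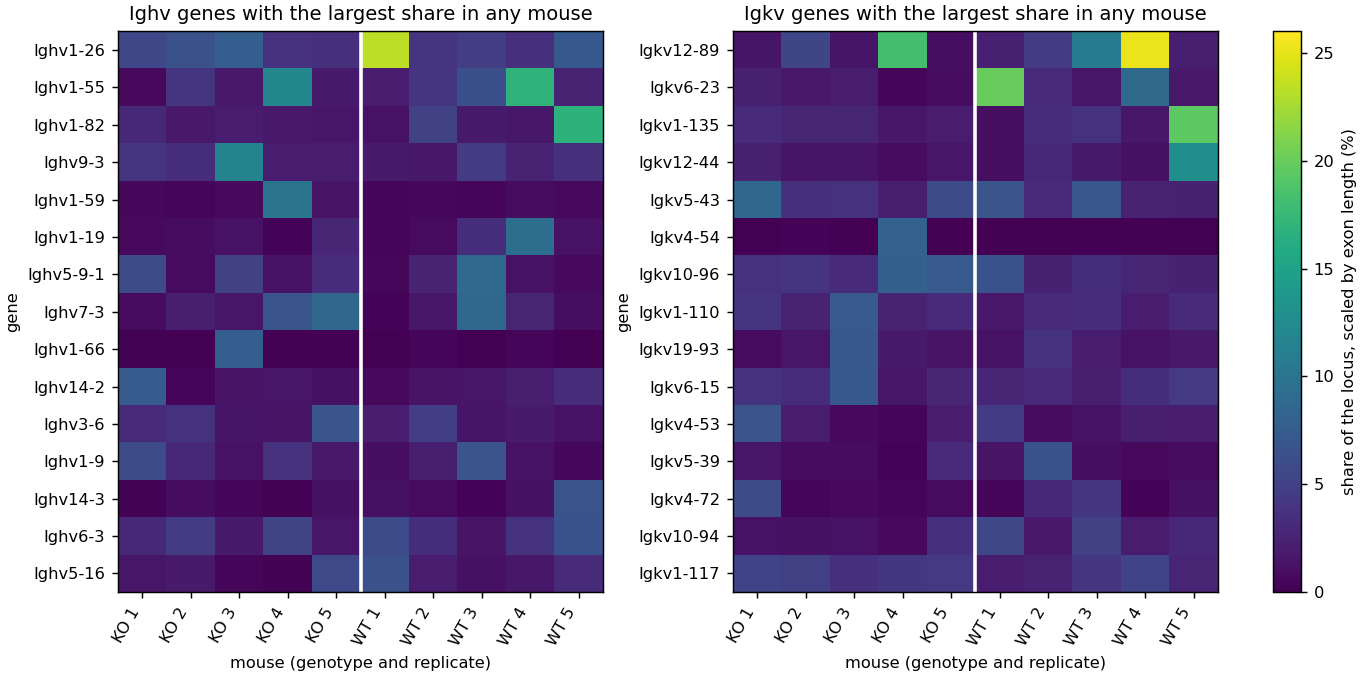
Colour gives the length-scaled share of its locus, in percent, that each of the 15 Ighv (left) and 15 Igkv (right) genes with the largest share in any mouse held in each of the 10 mice (columns, KO left and WT right of the white line). Bright cells stand alone in their row or are joined by 1 or 2 others, such as Ighv1-26 in WT replicate 1 (23.4%) and Igkv12-89 in WT replicate 4 (25.2%) and KO replicate 4 (18.4%).

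A gene exceeded 10% of its heavy or kappa locus in 12 cases, made up of 9 genes in 6 mice: 4 cases in 2 KO mice and 8 cases in 4 WT mice. Ighv1-26 had 15.02 CPM (331 counts) in WT replicate 1 and 1.08 to 3.35 CPM in the other 9 mice. As a share of heavy chain V counts these 331 counts were 22.7% (95% Wilson interval 20.6% to 24.9%). In the same mouse Igkv6-23 had 23.8 CPM (525 counts), 20.0% of kappa V counts (18.5% to 21.6%). The next highest mouse for Igkv6-23 was WT replicate 4, at 8.56 CPM, and the other 8 mice had 0.26 to 1.81 CPM, so that this gene stood out in 2 WT mice and in no KO mouse.

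WT replicate 5 was led by other genes. There Ighv1-82 had 8.60 CPM (249 counts; 17.4% of heavy chain V counts, 15.6% to 19.5%), against 0.558 to 1.52 CPM elsewhere. Igkv1-135 had 17.1 CPM (494 counts; 20.3% of kappa V counts, 18.8% to 21.96%), against 1.13 to 2.51 CPM elsewhere, and Igkv12-44 had 11.6 CPM (336 counts), against 0.608 to 1.81 CPM. Ighv14-3, a further heavy chain gene, was also highest there, at 3.59 CPM (104 counts) against 0 to 0.817 CPM in the other 9 mice. The highest value of any of these 4 genes in another mouse was 2.51 CPM.

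WT replicate 4 and KO replicate 4 shared their leaders across genotypes. Igkv12-89 had 21.9 CPM (505 counts; 23.5% of kappa V counts, 21.8% to 25.4%) in WT replicate 4 and 10.8 CPM (250 counts; 17.1%, 15.3% to 19.1%) in KO replicate 4. Ighv1-55 had 9.56 CPM (220 counts) and 4.21 CPM (97 counts) in these 2 mice, and 0.276 to 2.65 CPM in the other 8. KO replicate 4 had further genes of its own. Igkv4-54 had 117 counts there, 5 in KO replicate 2 and 0 in the other 8 mice, and held 8.20% of the kappa locus. Ighv1-59 had 68 counts there against 3 to 15 in the other 9 mice and held 10.01% of the heavy chain locus. Its sequence differs from that of Ighv1-55 at 1 position of the stretch printed above, and how counts were divided between these genes was not tested.

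The other leaders held smaller shares. Ighv9-3 had 3.07 CPM (66 counts) in KO replicate 3 and 0.476 to 1.62 CPM elsewhere, and Ighv14-2 had 2.64 CPM (67 counts) in KO replicate 1 and 0.222 to 1.52 CPM elsewhere. Ighv7-3 was high in 2 mice, KO replicate 5 (3.83 CPM) and WT replicate 3 (3.17 CPM). Igkv1-110, by contrast, was present at 1.82 to 3.81 CPM in all 10 mice and led in KO replicate 3 with 7.23% of a flatter distribution. Igkv5-43, the leader of KO replicate 1 at 5.43 CPM, was higher in CPM in WT replicate 1, at 8.40 CPM. Igkv10-96, the leader of KO replicate 5 at 4.504 CPM, was likewise highest in WT replicate 1, at 7.63 CPM. Ighv5-9-1 had 3.66 CPM in WT replicate 3 and 2.48 CPM in KO replicate 1, and Igkv5-39 had 3.53 CPM in WT replicate 2 and 0.13 to 1.90 CPM elsewhere.

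**Figure D3:**
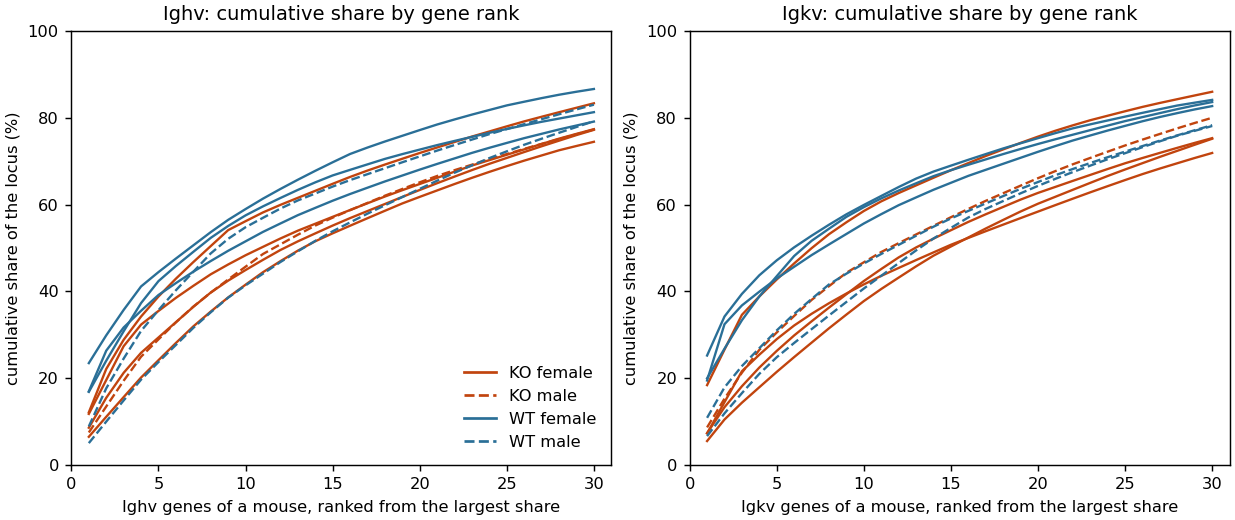
For each mouse the Ighv (left) and Igkv (right) genes were ranked from the largest share (x axis, rank 1 to 30) and the shares summed (y axis, percent of the locus); colour gives the genotype and dashed lines mark mice labelled male. The 5 leading Ighv genes held 23.7% to 44.4% and the 5 leading Igkv genes 21.4% to 47.2% of the locus, and the 3 WT females and KO replicate 4 start highest at the kappa locus.

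The 5 leading genes of a mouse held 24.1% to 38.8% of the Ighv locus in KO and 23.7% to 44.4% in WT mice. For Igkv they held 21.4% to 42.7% and 24.8% to 47.2%. With the leading gene of each mouse set aside, heavy chain levels were 24.5 to 45.9 in KO and 27.5 to 51.2 CPM in WT mice, and kappa levels 44.8 to 79.9 and 50.6 to 95.2 CPM. WT replicate 1 remained the highest mouse at both loci without its leading gene.

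The lambda share, Iglv counts as a percentage of Igkv plus Iglv counts, was 14.6%, 12.9%, 12.8%, 11.7% and 14.9% in KO replicates 1 to 5. In WT replicates 1 to 5 it was 9.30%, 12.7%, 23.7%, 12.4% and 9.56%. WT replicate 3 stood apart (95% Wilson interval 21.8% to 25.7%), and the other 9 mice lay between 9.30% and 14.9%. The means were 13.4% ± 1.37 in KO and 13.5% ± 5.89 in WT mice (n = 5 per genotype, SD). They differed by -0.17 points, and by -0.56 points without KO replicate 5. Without WT replicate 3 the difference turned to 2.37 points, and without KO replicate 4 to 0.257 points. Among mice labelled female, which do not include WT replicate 3, it was 2.63 points.

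The lambda genes differed in their use. Iglv1 was the leading lambda gene in 8 mice, with 41.2% to 73.2% of the lambda locus in those mice. Iglv2 led in KO replicate 1 (46.3%) and, by length-scaled share only, in WT replicate 3 (47.2%). There Iglv1 held 46.9% and had more counts than Iglv2, 210 against 198. Iglv2 had 7.95 CPM (198 counts) in WT replicate 3 and 0.955 to 4.76 CPM in the other 9 mice. Iglv3 was the steadiest of the 3, at 1.04 to 1.97 CPM. The constant genes also put WT replicate 3 apart: those of lambda held 32.9% of light chain constant counts there and 14.9% to 23.7% in the other 9 mice. Iglv1 and Iglv2 shared 76 of their 50-base stretches (22.2%), and their last 66 bases up to the motif differed at 2 positions.

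Heavy and light chain genes that led in the same mouse were compared over all mice, as both chains of an antibody come from the same cell. Levels in CPM were correlated across the 10 mice for the 1350 pairs of 27 tested Ighv with 50 tested light chain genes. The mice share the scaling of CPM, and p-values are two-sided permutation p-values (100000 permutations) adjusted over the 1350 pairs. The median Spearman's rho over the pairs was 0.15. By Pearson's r 7 pairs and by Spearman's rho 0 pairs passed an adjusted p under 0.05 (118 and 105 unadjusted), and the pairs below were chosen after their values were seen.

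Ighv1-82 and Igkv12-44 had the highest r and the highest rho of all pairs, r 0.999 (permutation p 1e-05, the smallest possible; adjusted 0.0135) and rho 0.976 (permutation p 4e-05, adjusted 0.054). With WT replicates 2 and 5, the mice farthest from the median of Ighv1-82, left out, r was 0.959 over 8 mice. Ighv1-55 and Igkv12-89 followed, with r 0.994 (permutation p 3e-05, adjusted 0.0203) and rho 0.939 (permutation p 0.00013, adjusted 0.0878), and r 0.9499 without KO replicate 4 and WT replicate 4. In both pairs the levels of the other 8 mice thus still rose together, though some neighbouring mice changed places. By rho, Ighv8-8 and Igkv6-23 tied with Ighv1-55 and Igkv12-89, at 0.939 (permutation p 0.00021, adjusted 0.0945), with r 0.711. Ighv1-64 and Igkv9-124, which led in no mouse, also passed by r (0.804, permutation p 0.00012, adjusted 0.0405). Without KO replicate 2 and WT replicate 3 their r was 0.88, so such a relation was not particular to leaders. Within a genotype there were 5 mice, too few for a correlation.

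Ighv9-3 and Igkv1-110, the leaders of KO replicate 3, had r 0.911 (permutation p 0.00119, adjusted 0.142), rho 0.782 (permutation p 0.0105, adjusted 0.457) and r 0.672 without KO replicate 3 and WT replicate 2. They thus kept a positive relation but did not pass the adjustment. In the following 2 pairs of leaders r fell once the extreme mice were left out. Ighv1-26 and Igkv6-23, the leaders of WT replicate 1, had r 0.930 (permutation p 0.0408, adjusted 0.537) and rho 0.515 (permutation p 0.132, adjusted 0.807), and r 0.049 once WT replicates 1 and 5 were left out. Ighv1-82 and Igkv1-135, which led WT replicate 5, had r 0.994 (permutation p 0.0134, adjusted 0.454), rho 0.515 (permutation p 0.135, adjusted 0.807) and r 0.49 without WT replicates 2 and 5. WT replicate 4, second for Igkv6-23, had only 1.74 CPM of Ighv1-26. Whether any pair was joined in the same cells was not tested, as whole-lobe counts hold no pairing of chains.

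**Figure D4:**
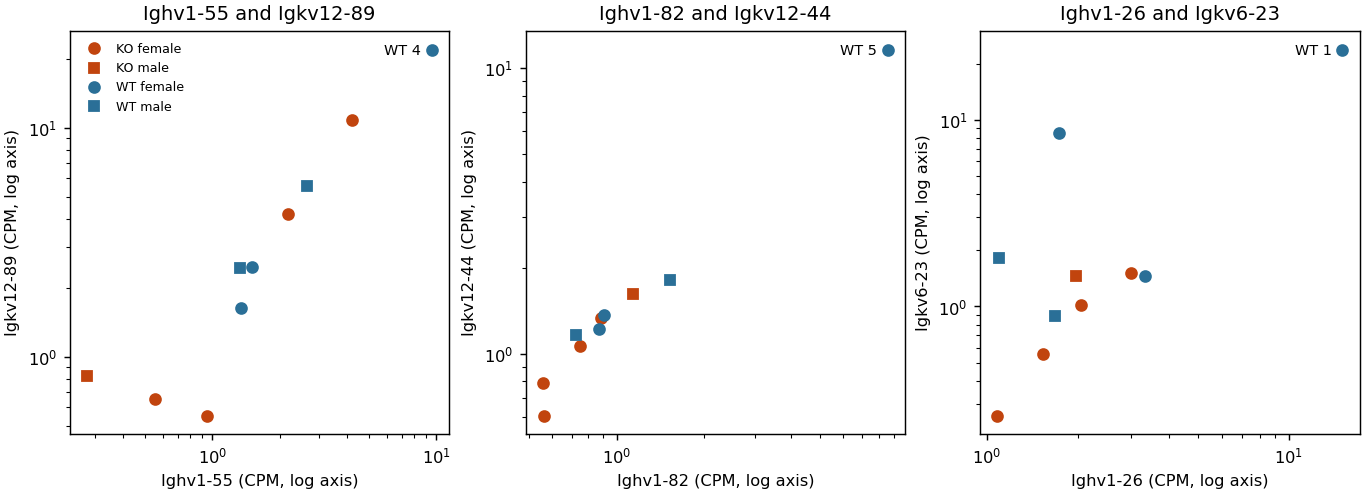
Each point is 1 mouse, with its level of a heavy chain gene (x axis, CPM, log axis) and of a light chain gene (y axis, CPM, log axis); colour gives the genotype and shape the labelled sex. The mouse that leads is named in each panel. In the left and middle panels the other mice also rise together, and in the right panel they do not once WT replicates 1 and 5 are set aside (r 0.049).

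Families of V genes differed in how steadily they were used. The Ighv1 family, 53 of the 113 Ighv genes (46.9%), held 49.2% to 60.02% of the heavy chain locus in every mouse, with 55.0% ± 4.09 in KO and 56.7% ± 2.8 in WT mice (SD, n = 5 each). Of the 24 families with at least 2 genes, 0 had shares whose ranges did not overlap between genotypes. Igkv4, the largest kappa family with 26 genes, held 24.6%, 19.4%, 13.7%, 18.3% and 12.2% of the kappa locus in KO replicates 1 to 5 and 14.4%, 11.5%, 13.0%, 11.5% and 9.90% in WT replicates 1 to 5. Only 3 KO mice lay above all WT mice (17.6% ± 4.92 against 12.0% ± 1.71, SD, n = 5 each). Igkv12, which holds both Igkv12-89 and Igkv12-44, reached 28.6% in WT replicate 4, 20.7% in KO replicate 4 and 19.3% in WT replicate 5, and was at 5.36% to 15.6% in the other 7 mice. Igkv6 ran from 6.35% to 28.4% of the kappa locus and Ighv7 from 0.412% to 9.23% of the heavy chain locus.

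The overlap of use between 2 mice was measured as the sum over genes of the smaller of their shares. For Ighv the median overlap was 55.6% among KO pairs, 51.9% among WT pairs and 55.7% between genotypes (10, 10 and 25 pairs). For Igkv it was 66.2%, 57.5% and 59.7%. Over all pairs it ran from 41.9% to 64.5% for Ighv and from 46.2% to 70.9% for Igkv, and the ranges of the 3 kinds of pair overlapped at both loci. KO replicate 4 belonged to the least alike pair at both loci, with WT replicate 1 for Ighv and with WT replicate 5 for Igkv.

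V genes varied widely between mice of the same group. Of the 216 members, 77 passed the filter on low counts (27 Ighv, 47 Igkv, 3 Iglv). Their median biological coefficient of variation was 49.8%, against 8.82% over all 18024 tested genes, 23.3% over 11 immunoglobulin constant genes and 24.8% over the 2 tested T cell receptor V genes. The tested V genes were also lower in level, with a median of 1.002 CPM against 17.8 CPM over all tested genes, and the part of level in this difference was not tested. By locus it was 59.1% for Ighv, 46.0% for Igkv and 34.2% for Iglv. In 18 of the 77 the highest mouse had at least 100 counts, a limit that a gene of low level passes only through a high mouse. In 6 of these 18 that mouse had at least 4 times the level of the second. These were Ighv1-26 and Igkv17-121 with their highest level in WT replicate 1, and Ighv1-82, Ighv14-3, Igkv1-135 and Igkv12-44 with theirs in WT replicate 5. Over all tested genes that reached 100 counts in the highest mouse, these V genes included, it was 7 of 14093. Igkv4-54, which did not pass the filter, had a ratio of 27.5 (117 counts in KO replicate 4).

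KO and WT mice were then compared gene by gene with edgeR's quasi-likelihood test (labelled sex as covariate, Benjamini-Hochberg adjustment over all tested genes). Over all genes 4 of 18024 were called at an adjusted p under 0.05 (0.0222%), and of the 77 V genes 0 were called. The smallest adjusted p of a V gene was 0.193. At an unadjusted p under 0.05 there were 6 of 77 V genes (7.79%), 1 higher and 5 lower in KO, where 17% of all tested genes passed (8.92% higher and 8.04% lower). DESeq2's Wald test and limma-voom also called 0 V genes, with 7 and 7 at an unadjusted p under 0.05, and without KO replicate 5 edgeR called 0 of 78 (8 unadjusted). Every KO value above or every KO value below all WT values was found for 0 of the 77, against 1.88% of all tested genes (0.96% higher and 0.921% lower in KO).

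The direction leaned to lower values in KO. The log2 fold change was below 0 for 52 of 77 V genes (67.5%), where 50.7% of all tested genes were below 0, and its median was -0.22 over V genes (-0.41 for Ighv, -0.21 for Igkv, -0.22 for Iglv) and -0.0027 over all genes. The V genes are measured in the same mice and are not independent of each other, and WT replicate 1 had the highest V gene sum. Members outside the filter add 2 genes whose genotypes did not overlap, both with counts near the floor. They were 1 higher and 1 lower in KO, each 0.463% of the 216 members. Of all tested genes 0.96% were higher and 0.921% lower without overlap. Those shares cover only genes that passed the filter, and the share over all 47333 genes was not computed. Ighv1-50 had 0, 5, 3, 0 and 0 counts in KO replicates 1 to 5 and 6, 6, 7, 6 and 14 in WT replicates 1 to 5, and Ighv14-1 had 3, 4, 4, 4 and 3 in KO and 0, 0, 0, 2 and 0 in WT mice.

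**Figure D5:**
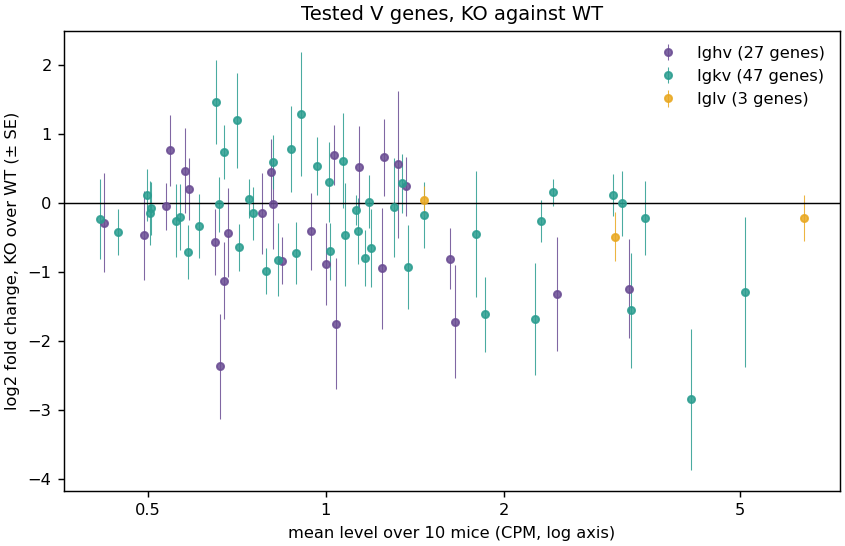
Each point is 1 of the 77 tested V genes, with its mean level over the 10 mice (x axis, CPM, log axis) and its log2 fold change of KO over WT (y axis) with the standard error of edgeR's fit as a bar; colour gives the locus. Of the points 52 lie below 0, none of the 77 genes passed an adjusted p under 0.05, and Igkv6-23 lies lowest at -2.84.

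Single V genes show how much 1 mouse decides. Igkv6-23 had the most negative log2 fold change, -2.84 ± 1.02 (SE; by edgeR p 0.0257, adjusted p 0.237), and -1.74 without WT replicate 1. Ighv14-3 had -2.37 ± 0.76 (SE; adjusted p 0.195 by edgeR), and -1.20 without WT replicate 5. Igkv6-32, with the smallest p of all V genes, was at 0.512, 0.887, 0.372, 0.477 and 0.514 CPM in KO replicates 1 to 5 and 1.95, 0.334, 0.442, 1.13 and 1.31 CPM in WT replicates 1 to 5. Its 3 high values are those of the WT females, and its log2 fold change was -0.98 ± 0.33 (SE; by edgeR p 0.0107, adjusted p 0.193). Igkv10-94 had -1.62 ± 0.54 (SE; adjusted p 0.21 by edgeR), with 6.17 CPM in WT replicate 1 and 0.391 to 2.61 CPM in the other 9 mice.

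On the higher side, Igkv4-61 had the smallest p. It had 1.22, 1.85, 0.744, 0.347 and 0.632 CPM in KO replicates 1 to 5 and 0, 0.429, 0.321, 0.261 and 0.725 CPM in WT replicates 1 to 5, a log2 fold change of 1.46 ± 0.61 (SE; by edgeR p 0.0353, adjusted p 0.262). The lower KO values lay among the WT values. Igkv8-21 (1.19 ± 0.68 SE; adjusted p 0.404 by edgeR) and Igkv3-7 (0.73 ± 0.39 SE; adjusted p 0.352 by edgeR) came next, each with its highest level in KO replicate 5. Igkv8-21 lay at 2.53 CPM there and at 0.174 to 1.26 CPM in the other 9 mice.

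For several genes that were first or second in their locus, the fold change moved toward 0 without the mouse where their level was highest. That mouse was WT for each of them, so the upward direction was built in and only the size of the move is read. For 2 of these genes the fold change moved past 0. Igkv12-89 had a log2 fold change of -1.29 ± 1.09 (SE; adjusted p 0.589 by edgeR), but 0.11 without WT replicate 4. Igkv1-135 had -1.56 ± 0.83 (SE; adjusted p 0.389 by edgeR), but 0.063 without WT replicate 5. Ighv1-26 moved from -1.24 to -0.13 without WT replicate 1, Ighv1-55 from -1.32 to -0.30 without WT replicate 4, and Ighv1-82 and Igkv12-44 from -1.72 and -1.68 to -0.20 and -0.22 without WT replicate 5. The edgeR adjusted p of these 4 genes was 0.33 to 0.455 with all mice. They stayed below 0 whichever mouse was left out, as did Iglv1 (-0.22 ± 0.33 SE) and Ighv6-3 (-0.81 ± 0.44 SE), whose highest mouse was at most 1.24 times the second.

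The constant genes, which are joined to every V region by splicing and so report all chains of a class together, leaned the same way without a call. All 11 tested constant genes had a log2 fold change below 0 (median -0.33), and by edgeR 0 passed an adjusted p under 0.05. At an unadjusted p under 0.05 by edgeR 2 of the 11 passed, where 17% of all tested genes did. Ighm, the heavy chain of IgM, averaged 235 ± 41.3 in KO and 284 ± 62 CPM in WT mice (n = 5, SD), with a log2 fold change -0.33 ± 0.12 (SE; by edgeR p 0.0156, adjusted p 0.21). Igkc, the kappa constant gene, averaged 136 ± 26.6 and 171 ± 53.7 CPM (-0.37 ± 0.19 SE; adjusted p 0.354 by edgeR). Iglc3 averaged 8.47 ± 1.93 and 12.0 ± 2.97 CPM (-0.44 ± 0.18 SE; adjusted p 0.263 by edgeR), and Iglc1 and Iglc2 had -0.23 and -0.33. Ighd, the heavy chain of IgD carried by naive B cells, had -0.19 (SE 0.20).

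Igha, the heavy chain of IgA, had 97.9, 106, 40.3, 44.5 and 119 CPM in KO replicates 1 to 5 and 191, 63.1, 60.5, 85.2 and 92.9 CPM in WT replicates 1 to 5. WT replicate 1 was the highest and KO replicate 3 the lowest, as for the sum of V genes. Its log2 fold change of -0.28 ± 0.45 (SE; adjusted p 0.799 by edgeR) turned to 0.091 without WT replicate 1. WT replicate 1 was also the highest mouse for Igkc (243 CPM), Jchain, which links the subunits of IgA and IgM (41.6 CPM), Ighg2b (5.99 CPM) and Ighg2c (4.27 CPM). Ighg2b was at 0.558 to 4.82 CPM and Ighg2c at 0.261 to 2.33 CPM in the other 9 mice. Jchain averaged 17.6 ± 6.32 in KO and 24.4 ± 11.6 CPM in WT mice (n = 5, SD; -0.48 ± 0.38 SE; adjusted p 0.568 by edgeR). Pigr had the opposite direction and no overlap: the KO mice had 64.4 to 86.1 CPM and the WT mice 47.5 to 60.6 CPM. Its log2 fold change, 0.52 ± 0.08 (SE), missed the threshold with an adjusted p of 0.0674 by edgeR.

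Markers of the cells that make or select antibodies were counted from lists, and edgeR called 0 genes of any list. At an unadjusted p under 0.05 by edgeR there were 1 of 13 tested plasma cell genes and 2 of 8 of V(D)J recombination. There were also 3 of 6 listed for B-1 cells and 3 of 12 T cell genes, and 0 on the other lists. Of all tested genes 17% passed at this level. Of 13 B cell genes 13 were tested and 8 were below 0 (median log2 fold change -0.02), with Fcer2a, the low-affinity IgE receptor, at -0.32 ± 0.23 (SE; adjusted p 0.509 by edgeR) and Cr2, a complement receptor, at 0.16 ± 0.17 (SE; adjusted p 0.668 by edgeR). The antigen receptor gene Cd79a had 795 to 1807 counts per mouse. The summed level of this list was 206 to 414 in KO and 253 to 367 CPM in WT mice, highest in KO replicate 2 and not in WT replicate 1, the mouse with the most V gene RNA. Of 14 plasma cell genes 13 were tested and 8 were below 0 (median -0.09), with Fkbp11, a chaperone of secretory cells, at -0.32 ± 0.14 (SE; adjusted p 0.267 by edgeR) and Mzb1 at -0.21 ± 0.10 (SE; adjusted p 0.305 by edgeR). Their sum, 836 to 918 in KO and 890 to 1005 CPM in WT mice, includes genes that lung epithelium also expresses, such as Sdc1 at 6203 to 8398 counts per mouse. Tnfrsf17, a defining plasma cell marker, had 2 to 7 counts per mouse.

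Among germinal centre genes, which mark sites of antibody maturation, Rgs13 had 1 to 3 counts per mouse. Of 8 such genes 5 were tested and 2 were below 0 (median 0.09), with Bcl6, a repressor that lung cells of other kinds also express, at 0.16 ± 0.10 (SE; adjusted p 0.416 by edgeR) and the death receptor gene Fas at -0.10 ± 0.09 (SE; adjusted p 0.603 by edgeR). Of the 14 genes of V(D)J recombination, 4 were under the floor everywhere (Rag2, Vpreb1, Vpreb2 and Igll1), Rag1 had 1 to 14 counts, and of the 8 tested edgeR called 0. Prkdc, a DNA end-joining kinase expressed in all cells, had 0.30 ± 0.08 (SE; adjusted p 0.134 by edgeR, 0.0383 by DESeq2's Wald test) with no overlap of the genotypes, and Nhej1 had -0.38 ± 0.15 (SE; adjusted p 0.241 by edgeR). Of 6 genes listed for B-1 cells 4 were below 0, with Bhlhe41 at -0.26 ± 0.08 (SE; adjusted p 0.161 by edgeR) and Cd5, which T cells also express, at -0.36 ± 0.15 (SE; adjusted p 0.262 by edgeR). Of 12 T cell genes 9 were below 0 (median -0.09), with Cd3d at -0.29 ± 0.10 (SE; adjusted p 0.195 by edgeR). Of 12 lymphoid chemokine and survival factor genes 7 were below 0 (median -0.04), with the chemokine gene Ccl19 at 0.39 ± 0.20 (SE; adjusted p 0.345 by edgeR) and the lymphotoxin gene Lta at -0.34 ± 0.25 (SE; adjusted p 0.512 by edgeR). The part that numbers of B cells or plasma cells had in the V gene values was not tested.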

How the data were processed

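For 47333 genes and 10 mice the authors deposited estimated counts without scaling. Per the labels' protocols, stranded mRNA libraries (KAPA) were read as single reads of 50 bases. The submitters' processing notes name STAR 2.6.0, Salmon 0.9.1, FastQC, MultiQC and the build mm10 or GRCm38, without roles. The annotation behind the table is not given in the sources used here. Of values above 0, 30.1% were off a whole number by over 0.01, as when reads are shared out among genes. Identifiers were matched to GENCODE M21 (GRCm38): 47281 matched and 52 did not (0.00668% of counts), and 0 columns lacked a sample. The reads are not used here, so mutated or junction-spanning V reads that were left uncounted cannot be seen, and V gene levels are those of reads assigned to germline models.

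Estimated counts were rounded. edgeR 4.0.16 (R 4.3.3; TMM, filterByExpr by genotype with minimum count 10 and minimum total 15, robust quasi-likelihood fit, sex as covariate) tested 18024 genes, called at an adjusted p under 0.05. All tests are two-sided, standard errors derive from the F statistic, and the scripts were tested on simulated data. Shares divide counts by exon length. Replicates were numbered in sample order, which pairs no mice. Alternatives were DESeq2 1.42.0 (size factors; Wald test), limma-voom (limma 3.58.1), no filter, genes with a mean CPM of 1 or more, a fit without sex, females alone, a fit without robust dispersion, unrounded counts, V genes under 10 counts set to 0, no TMM, no length scaling, copies sharing at least 95% of 31-base stretches merged (1 pair, Ighv1-62-2 and Ighv1-71), and leaving out each mouse. Members and lists were chosen with earlier results of these data known.

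Named genes were the leader of each locus in each mouse, the 5 Ighv, 5 Igkv and 3 Iglv genes with the highest length-scaled mean, the 3 tested V genes with the smallest p in each direction, and the 5 V genes with the largest ratio of highest to second mouse among those with 100 counts. Constant genes with a mean of at least 1 CPM, Jchain, Pigr and the 2 genes with the smallest p of each list were added. Ighv1-50, Ighv14-1, Ighv1-59, Igkv17-121 and the low-count markers were named after their values were seen. The same holds for Ighv1-52, Igkv1-117, Igkv19-93, Ighv8-8, Ighv1-64 and Igkv9-124.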

Additional observations from a re-analysis of the deposited data

Results flagged for a closer look

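In groups of 5 mice, the highest or lowest value was compared with its nearest neighbour, and a value was listed where that gap took more than 0.71 of the group's range (Dixon's 95% limit). Of 92 groups tested, 17 were listed. Chance lists about 1 in 20 groups, but many of these genes were named because they were high in 1 mouse, so the count cannot be set against that share. All 17 are highest values. Among shares, the largest Igkv share of KO replicate 4 was 18.4% (next 8.61%) and the lambda share of WT replicate 3 was 23.7% (next 12.7%).

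WT replicate 1 was listed for Ighv1-26 at 15.02 CPM, Igkv10-96 at 7.62 CPM, Igha at 190.6 CPM and Ighg2c at 4.27 CPM, where the next WT mouse had 3.35, 2.48, 92.8 and 1.19 CPM. WT replicate 5 was listed for Ighv1-82 at 8.60 CPM, Igkv1-135 at 17.1 CPM, Igkv12-44 at 11.6 CPM and Ighv14-3 at 3.59 CPM, where the next had 1.52, 2.29, 1.81 and 0.817 CPM. WT replicate 4 was listed for Ighv1-55 at 9.56 CPM and Igkv12-89 at 21.9 CPM (next 2.65 and 5.58 CPM), and WT replicate 3 for Ighv5-9-1 at 3.65 CPM and Iglv2 at 7.95 CPM (next 0.81 and 3.39 CPM). Among KO mice the values were 2.64 CPM of Ighv14-2 in replicate 1, 0.887 CPM of Igkv6-32 in replicate 2 and 5.08 CPM of Igkv4-54 in replicate 4, with 0.514, 0.514 and 0.185 CPM in the next mouse.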

How the results depend on the processing

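No V gene was called under any of the 18 alternatives, with 2 to 21 at an unadjusted p under 0.05 (21 of 204 tested without a filter, 2 of 39 at a mean CPM of at least 1). The count over all genes moved from 4 to 50 with no filter, 346 by DESeq2's Wald test and 2 by limma-voom, and lay between 2 (without KO replicate 2, 4 or 5 or WT replicate 1) and 18 (without WT replicate 3) when 1 mouse was left out. Leaving out 1 mouse, the log2 fold change ran from -2.22 to 0.11 for Igkv12-89 (above 0 without WT replicate 4), from -2.07 to 0.063 for Igkv1-135 (WT replicate 5) and from -0.66 to 0.091 for Igha (WT replicate 1). Pigr passed without a filter, without the sex covariate, by DESeq2's Wald test and without KO replicate 3, and Prkdc by DESeq2's Wald test. Leaving out 1 mouse, the difference of KO minus WT ran from -39.6 to -13.9 CPM for summed V genes, 5.28 to 11.4 and 7.93 to 14.3 for effective Ighv and Igkv genes, -7.26 to -2.65 and -9.46 to -4.81 points for the largest shares, and -1.22 to 2.37 points for the lambda share (above 0 without WT replicate 3 or KO replicate 4). Among mice labelled female, KO replicate 5 with its low Xist included, the first 5 differences were -52.8, 12.8, 18.3, -9.36 and -11.9. No paired analysis was possible because the replicates were only numbered in sample order. Depth limits single V genes: 32 of 216 stayed under 3 counts in every mouse.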
